A study of Mus musculus with 4 samples.

Results

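Monocyte-like cells of the atherosclerotic mouse aorta, the 209 cells of cluster 5, were compared directly with the 543 cells of cluster 1, a macrophage cluster. Membership was the cluster number that the authors deposited for each cell, so 752 of 3002 myeloid cells entered the comparison. All cells were live CD45+ leukocytes from aortas of Apoe-/- mice fed a western diet for 13 weeks. The series text names 6 mice of this 1 group, and the titles name 2 biological replicates with 2 libraries each (1-1, 1-2, 2-1 and 2-2). Neither the division of the mice over the replicates nor their age and sex is given in the sources used here. Every cell of both clusters therefore shares the Apoe deletion and the diet, and healthy or wild-type aortas were not analysed here.

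Monocytes are blood cells made in the bone marrow. In mice the classical kind carries high Ly6C on its surface and enters inflamed tissue through the receptor Ccr2, whereas the non-classical kind, marked by Nr4a1 and Cx3cr1, patrols vessel walls. In the artery wall monocytes take up lipoproteins and mature into macrophages, which gain complement C1q, the receptor Adgre1 (F4/80) and MHC class II molecules. The question of the comparison is what separates the monocyte-like cells of the plaque from a macrophage population that itself carries Cx3cr1.

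The 2 clusters were present in every library at a similar ratio. Cluster 5 made up 8.05%, 7.39%, 5.64% and 6.90% of the cells of libraries 1-1, 1-2, 2-1 and 2-2, and cluster 1 made up 22.5%, 20.4%, 14.2% and 16.3%. For each cell of cluster 1 the libraries held 0.358, 0.363, 0.397 and 0.422 cells of cluster 5. No barcode was shared between libraries. The median cell held 5859 unique molecular identifiers (UMIs, tags that mark captured transcripts) in cluster 5 and 5115 in cluster 1. Within libraries the median of cluster 5 was the higher of both in each case, from 11989 against 7666 in library 1-1 to 5015 against 4389 in library 1-2. The counts of all cells of 1 cluster and 1 biological replicate were added up, which gave 747577 and 722540 UMIs for cluster 5 and 1680416 and 1483324 for cluster 1. Levels below are counts per 1e+06 counts (CPM) of such a sum, and pairs of values are biological replicates 1 and 2.

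The marker genes separated the clusters in every library. Ly6c2, which encodes the Ly6C antigen (chromosome 15, 75108158 to 75111970, minus strand, GRCm38), stood at 355, 418, 215 and 403 CPM in the 4 libraries of cluster 5 and at 0, 9.80, 16.7 and 4.84 CPM in cluster 1. Chil3, a chitinase-like protein of monocytes and neutrophils (chromosome 3, 106147554 to 106167564, minus strand), stood at 113, 399, 193 and 315 CPM and at 24.1, 10.6, 6.09 and 10.9 CPM. Both were higher in cluster 5 in every library, without overlap. The pattern was the opposite for the receptors. Cd72, an inhibitory lectin-like receptor first known from B cells (chromosome 4, 43446462 to 43454628, minus strand), had 178, 124, 104 and 154 CPM in cluster 5 and 673, 564, 721 and 703 CPM in cluster 1. Cx3cr1, the receptor for fractalkine (chromosome 9, 119901616 to 120069879, minus strand), had 99.7, 116, 141 and 83.1 CPM in cluster 5 and 338, 246, 297 and 305 CPM in cluster 1. Their highest library in cluster 5 lay below their lowest in cluster 1. Ly6c2, Chil3, Cd72 and Cx3cr1 were given as markers of these clusters, so their separation is not independent evidence.

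**Figure D1:**
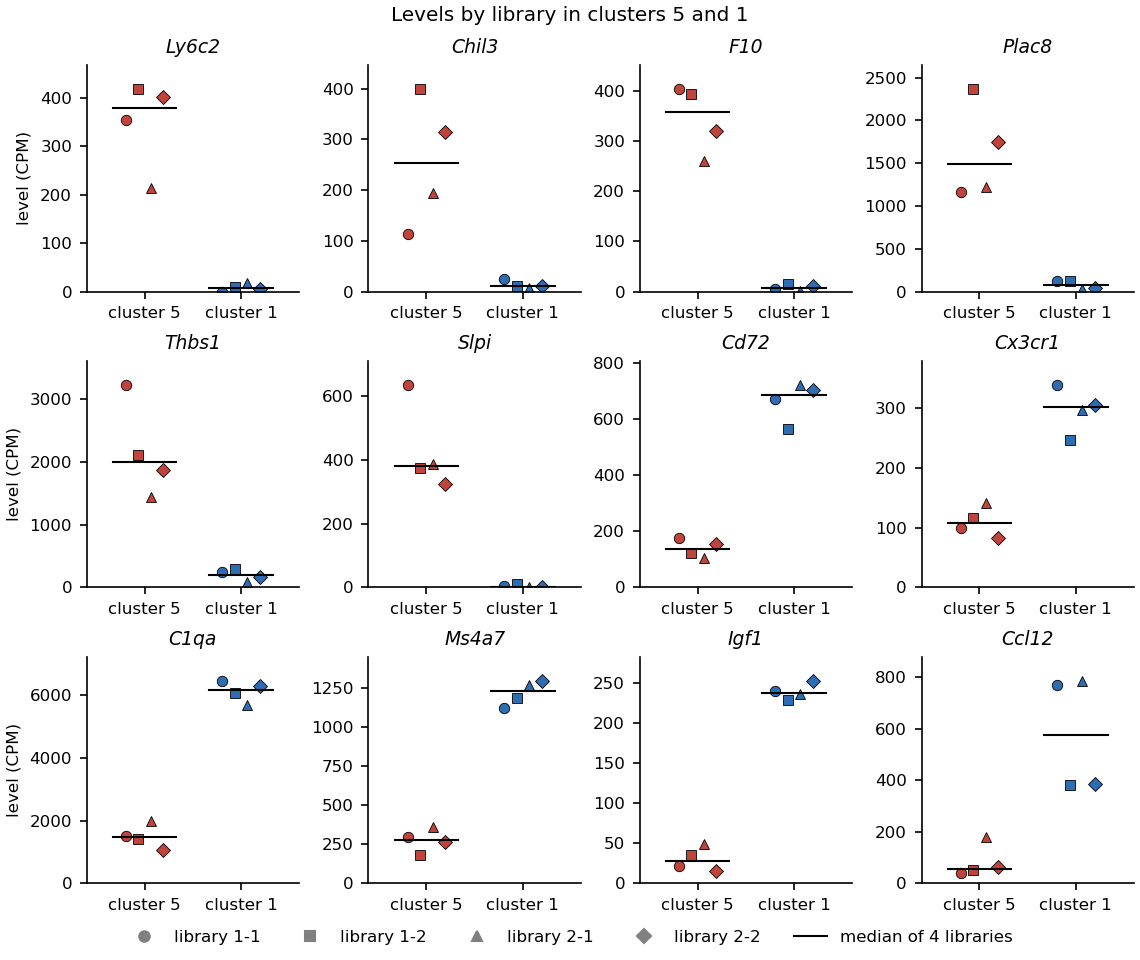
Level in CPM (linear axis from 0) of 12 genes in the 4 libraries, summed over the cells of cluster 5 (red) and cluster 1 (blue). Each symbol is 1 library and the line is the median of 4. None of the 12 overlaps between the clusters, but they are markers and genes with large differences in these data. Their lack of overlap thus describes the choice and says nothing of all tested genes. Library 2-1 holds the highest Ccl12 value of cluster 5.

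Apoe itself was read as a check of the genotype. It had 5.35 and 18.0 CPM in cluster 5 and 32.7 and 14.8 CPM in cluster 1, and its call (log2 fold change -1.05 ± 0.39, adjusted p = 0.0409) was lost in 8 alternatives, DESeq2 among them, and without library 1-2 it was -0.41. Reads outside the deleted part of a gene check nothing, and the labels do not say which part is deleted. Of the markers by which the series text selected myeloid cells, Adgre1 (149.8 and 184 CPM in cluster 5, 556 and 529 in cluster 1) and Csf1r (419 and 350.2 against 633 and 574) were higher in cluster 1, and Fcgr1 (250.1 and 206 against 271 and 202) was not called. Lyz2, lysozyme, was high in both. Of its dendritic markers Zbtb46 and Flt3 were too low to test, at 1.34 and 0 CPM (Zbtb46) and 8.03 and 9.69 CPM (Flt3) in cluster 5. Itgax, at 80.3 and 81.7 against 51.8 and 62.0 CPM, was not called, but was called higher in cluster 5 without library 1-2 and without library 2-1.

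Across the transcriptome the clusters differed widely. Of 7237 genes tested, 777 (10.7%) were called higher in cluster 5 and 718 (9.92%) higher in cluster 1, at an adjusted p under 0.05 in edgeR's quasi-likelihood test with Benjamini-Hochberg adjustment. Of these, 307 and 358 differed by at least 2-fold, and 771 and 711 pointed the same way in both biological replicates. The median log2 fold change over all tested genes was -0.01. Calls in each gene list below are to be read beside the shares of 10.7% and 9.92%. The clusters were cut from these same counts, so the calls describe the split that the authors made and their p-values are too small as tests of it. With DESeq2 168 and 144 genes were called, all of them among the calls above, and without library 1-2, which held the most cells, 361 and 367.

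**Figure D2:**
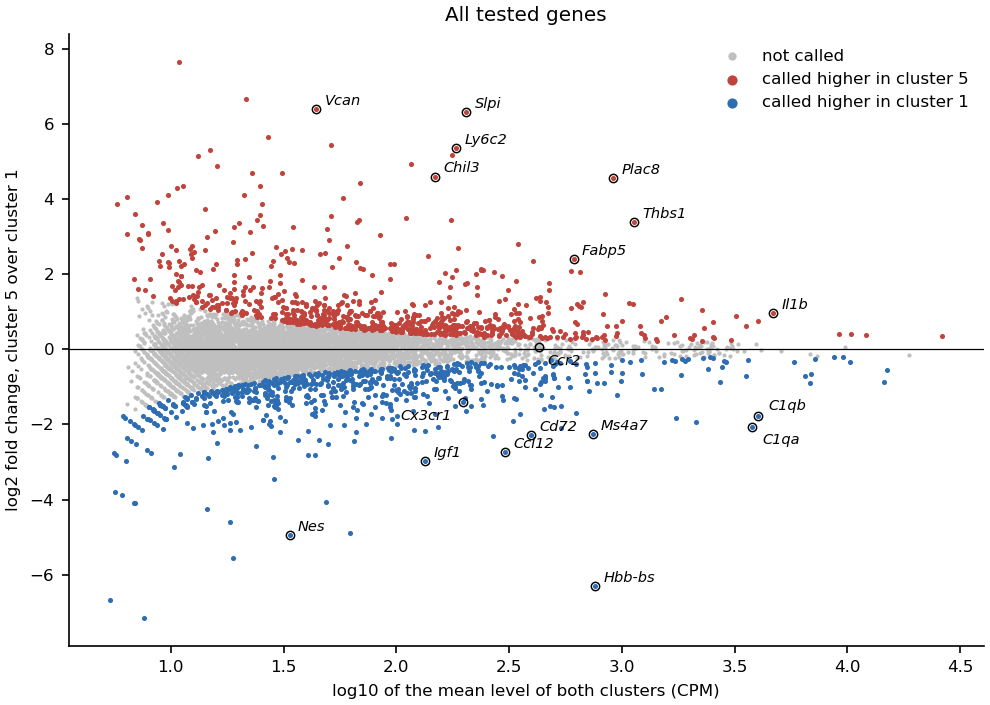
Log2 fold change of cluster 5 over cluster 1 (vertical axis) against log10 of the mean level of both clusters in CPM, for 7237 tested genes; red and blue points are called higher in cluster 5 and in cluster 1. Ccr2 lies at 0.07 although Ly6c2, Chil3 and Plac8 are above 4, and Hbb-bs, at -6.31, rests on 1 cell.

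Classical monocyte genes were higher in cluster 5 with 1 exception. Of 18 listed and tested, 17 were called higher in cluster 5, none in cluster 1, with a median log2 fold change of 3.61. The list names the cell type by which the cluster is described, so its direction is not independent evidence. Plac8, a small cysteine-rich protein of myeloid cells, had 1157, 2360.2, 1225 and 1749 CPM in the libraries of cluster 5 and 123, 121, 33.5 and 37.5 CPM in cluster 1, and differed by 4.55 ± 0.12 (log2 fold change ± SE, edgeR adjusted p = 1.25e-283). Plac8 was not particular to cluster 5: it stood at 922 and 789 CPM in cluster 11, a dendritic cluster described below. Ly6c2 differed by 5.36 ± 0.21 (adjusted p = 2.31e-139) and Chil3 by 4.59 ± 0.21 (adjusted p = 3.43e-104). F10, which encodes coagulation factor X, had 397 and 293 CPM against 11.9 and 6.74 CPM, a difference of 5.17 ± 0.20. Hp, haptoglobin, which binds free haemoglobin, had 276 and 177 against 13.7 and 0.674 CPM. Ifitm6, of the interferon-induced transmembrane family, had 129.8 and 136 against 6.55 and 5.39 CPM.

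Some classical genes had 3 UMIs or fewer in the sums of cluster 1. Vcan, the proteoglycan versican, had 129 UMIs in cluster 5 and 3 in cluster 1, a pooled ratio of 92.5 (95% interval 31.0 to 455, counting error only). Cd177, a surface protein of neutrophils and monocytes, had 32 UMIs against 0, which makes it at least 23.0-fold higher when cluster 1 is set at a floor of 3 counts in all.

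Others differed less. Msrb1, a methionine sulfoxide reductase, had 631 and 585 against 92.8 and 80.9 CPM (2.79 ± 0.13), and Clec4e, the receptor Mincle, had 753 and 603 against 152 and 112 CPM (2.35 ± 0.13). Fn1, fibronectin, differed by 1.40 ± 0.12 and F13a1, the A chain of coagulation factor XIII, by 1.26 ± 0.16. Lyz2, at 14195 and 13269.9 CPM in cluster 5 and 11053 and 9701 CPM in cluster 1, differed by 0.39 ± 0.06. That call was lost with DESeq2 and with all clusters in 1 fit, and without library 1-2 the difference was 0.16 (adjusted p = 0.546).

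Ccr2 was the member that did not separate the clusters. The receptor for Ccl2, which draws classical monocytes out of the marrow and into tissue, had 512 and 374 CPM in cluster 5 and 425 and 403 CPM in cluster 1. The ranges overlapped, and the log2 fold change was 0.07 ± 0.12 (adjusted p = 0.763). It turned negative with the 4 libraries as samples (-0.03) and without library 1-2 (-0.23). At 2000 UMIs per cell 50% of cells in cluster 5 and 40.5% in cluster 1 had a Ccr2 UMI, against 32.6% in cluster 11, a small cluster of cDC1-like dendritic cells with a median of 8768 UMIs. Unthinned shares were 73.7%, 56.0% and 63.8%.

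Individual cells of cluster 5 were unequal in these genes. To compare shares of cells, each cell was thinned to 2000 UMIs, which left out 9 of the 209 cells of cluster 5 and 22 of the 543 of cluster 1. Ly6c2 was then found in 31.0% of cells of cluster 5 (exact binomial 95% interval 24.7 to 37.9) and in 1.15% of cluster 1 (0.424 to 2.49). Unthinned shares were 43.1% and 2.03%. In cluster 11, which served as a cell type that should lack the gene, 2 of 46 cells had a Ly6c2 UMI. Chil3 was found in 28.0% and 1.54% (unthinned 36.8% and 2.21%), and in 0 of 46 cells of cluster 11, for which the exact upper bound is 7.71%. Plac8 was found in 61.0% of cluster 5, 3.26% of cluster 1 and 63.0% of cluster 11 (unthinned 67.9%, 4.97% and 80.9%). Cd72 was found in 15% of cluster 5 (10.4 to 20.7), 57.0% of cluster 1 and 2.17% of cluster 11, and Cx3cr1 in 14.5%, 39.2% and 2.17%. Unthinned shares were 28.2%, 75.9% and 8.51% for Cd72 and 40.7%, 63.7% and 12.8% for Cx3cr1. The shares of both receptors in cluster 5 thus lay between those of the macrophage and the dendritic cluster.

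C1q transcripts behaved otherwise. C1qa, a chain of the first complement component, was found at 2000 UMIs in 37.5% of cells of cluster 5 (30.8 to 44.6) and in 96.5% of cluster 1, and also in 30.4% of cluster 11 (17.7 to 45.8). Unthinned shares were 44.0%, 97.4% and 42.6%. Its level was 1445 and 1478 CPM in cluster 5 and 886 and 1653 CPM in cluster 11. The share in cluster 5 lay within the interval of cluster 11. Cells of cluster 11 were themselves unequal: 19 of 46 had no UMI of the 8 macrophage genes summed below, and the highest had 27. Cluster 11 is thus no clean background for C1q, and the comparison cannot decide whether cells of cluster 5 express it. How far free RNA enters either share was not tested.

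In each cell UMIs were also summed over 8 monocyte genes (Ly6c2, Chil3, Plac8, F10, Hp, Ifitm6, Msrb1 and Vcan) and over 8 macrophage genes (C1qa, C1qb, C1qc, Ms4a7, Cd72, Cd81, Fcrls and Cx3cr1), all chosen after their values were seen. At 2000 UMIs the median cell of cluster 5 held 5.5 UMIs of the monocyte set, with 25% of cells at or below 2 and 25% at or above 15, and 24 of 200 cells had none. The same cells held a median of 2 macrophage UMIs, with 73 of 200 at 0 and 25% at 11.25 or more. In cluster 1 the medians were 0 monocyte and 38 macrophage UMIs, and 420 of 521 cells had no UMI of the monocyte set. Library 1-2 held the highest median of the monocyte set in cluster 5 (9) and library 1-1 the lowest (3). Cells of cluster 11 had medians of 1 and 1, with 25% at or above 3 monocyte and at or above 8 macrophage UMIs. Plac8, a member of the monocyte set, was itself found in 63.0% of the cells of cluster 11. Cells of cluster 5 fell on both sides: 113 of 200 held more monocyte than macrophage UMIs, 80 held more macrophage UMIs and 7 held as many of each. The sets are unlike in abundance, with a median of 38 macrophage UMIs in cluster 1 and 5.5 monocyte UMIs in cluster 5. A lead of 1 UMI also counts, so a side is not the identity of a cell. In libraries 1-1, 1-2, 2-1 and 2-2 more macrophage UMIs were held by 10 of 19, 28 of 89, 14 of 30 and 28 of 62 cells. In 7 cells the macrophage set reached the median of cluster 1 or more, up to 66 UMIs, and 5 cells held at least 10 UMIs of both sets. In cluster 1 the macrophage set was the larger in 516 of 521 cells, and in cluster 11 it was the larger in 21 of 46 and reached 27 UMIs at most.

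**Figure D3:**
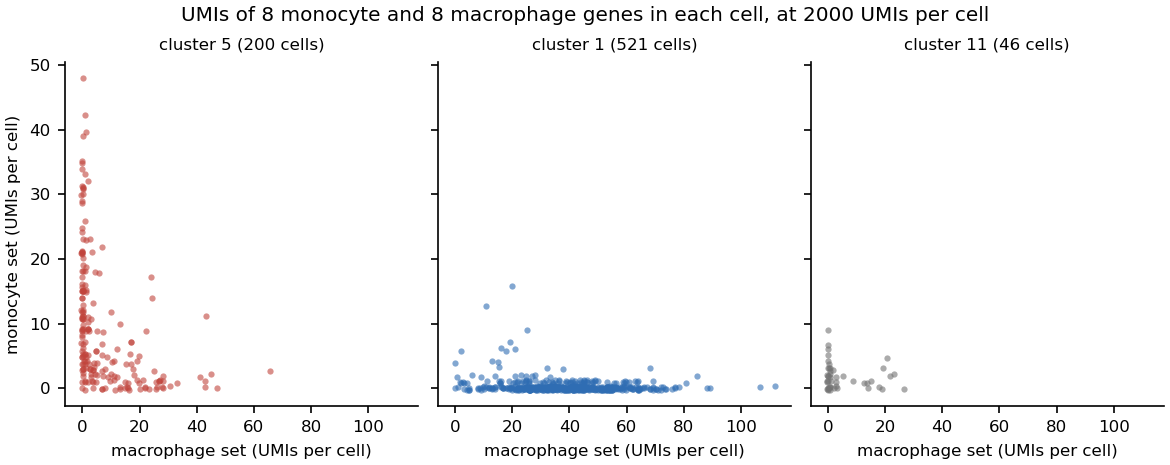
UMIs of 8 macrophage genes (horizontal) and of 8 monocyte genes (vertical) in each cell of clusters 5, 1 and 11, every cell thinned to 2000 UMIs; points are shifted by up to 0.3 UMI in each direction to part ties. Cells of cluster 5 lie along both axes, 113 of 200 with more monocyte and 80 with more macrophage UMIs, and cluster 1 lies along the horizontal axis, where its median is 38.

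Genes of non-classical monocytes split in both directions. Of 18 listed, 17 were tested: 9 were higher in cluster 5 and 5 in cluster 1, with a median log2 fold change of 0.92. Ace, angiotensin-converting enzyme, had 38 UMIs in cluster 5 and 2 in cluster 1, a pooled ratio of 40.9 (95% interval 10.6 to 350, counting error only). Treml4, a receptor of patrolling monocytes, had 40.1 and 33.2 CPM against 4.17 and 2.70 CPM (3.35 ± 0.43, adjusted p = 1.64e-13). Itgal, the integrin chain CD11a, had 73.6 and 52.6 against 9.52 and 3.37 CPM (3.24 ± 0.33). Nr4a1, the nuclear receptor that non-classical monocytes need, had 494 and 796 CPM against 402 and 550.1 CPM, and its small difference (0.40 ± 0.11) was lost in 6 alternatives, DESeq2 and the fit without the block among them, and without library 2-2 it was 0.15.

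Other genes of that list were higher in the macrophages. Fcgr4, an activating receptor for IgG, had 100.3 and 62.3 CPM in cluster 5 and 216 and 148 CPM in cluster 1 (-1.18 ± 0.17). Pou2f2, the transcription factor Oct-2, had 116 and 127 against 236 and 251 CPM (-1.02 ± 0.15), and Spn, CD43, 16.1 and 13.8 against 42.3 and 43.8 CPM (-1.53 ± 0.32), the last a call lost with DESeq2 and at 2000 UMIs per cell. Of the 209 unthinned cells of cluster 5, 126 had a UMI of Ly6c2 or Chil3 and 50 a UMI of Ace or Treml4. Both pairs were seen in 26 cells and neither in 59. At 2000 UMIs per cell the counts were 92 and 25 of 200 cells, with both pairs in 7 and neither in 90, so the overlap depends on depth. With the 4 libraries as samples 2 members of the list were called higher in cluster 5 and without library 1-2 there were 5. Fewer genes were tested in those fits, 645 and 699 of the 777 genes called higher in cluster 5. A member that was not tested there is not counted, so these counts do not show how many calls were lost.

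Genes of tissue macrophages mirrored the classical monocyte genes. Of 20 listed and tested, 18 were higher in cluster 1 and none in cluster 5, with a median log2 fold change of -1.37. Ms4a7, a tetraspan membrane protein of macrophages, had 295, 178, 359 and 265 CPM in the libraries of cluster 5 and 1118, 1183, 1268 and 1290.3 CPM in cluster 1. Its log2 fold change was -2.26 ± 0.11 (adjusted p = 1.19e-87), close to those of Cd72 (-2.27 ± 0.13) and of Cd81, a tetraspanin (-2.10 ± 0.12). The 3 C1q chains differed by -2.08 ± 0.08 (C1qa), -1.79 ± 0.08 (C1qb) and -1.93 ± 0.09 (C1qc). Adgre1 differed by -1.72 ± 0.13 and Cx3cr1 by -1.39 ± 0.15. The growth factor receptor Csf1r differed by -0.67 ± 0.11, a call that DESeq2 did not make. Fcgr1 (-0.07 ± 0.13, adjusted p = 0.791) and Cd68 (0.25 ± 0.11, adjusted p = 0.0789) were not called. DESeq2 called 11 of the 20.

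Markers of other macrophage states gave no common direction, beside shares of 10.7% and 9.92% called over all tested genes. Of 9 tested members of the resident macrophage list, 3 were higher in cluster 1, among them the mannose receptor Mrc1 (163 and 219 against 402 and 338 CPM) and the chemokine Pf4 (143 and 242 against 331 and 613 CPM). Lyve1, the hyaluronan receptor of resident macrophages, was the 1 called higher in cluster 5 (25.4 and 56.7 against 12.5 and 18.2 CPM), in 6.2% of its cells. That call was lost in 4 alternatives, and without library 2-1 the log2 fold change was 0.30. Of 11 tested genes of lipid-laden foamy macrophages, 4 were higher in each cluster. Fabp5, a fatty acid binding protein, had 927 and 1127 CPM in cluster 5 against 253 and 138 CPM (2.40 ± 0.11, adjusted p = 1.52e-92), and Gpnmb 237 and 293 against 83.3 and 80.2 CPM (1.67 ± 0.15). Lgals3, galectin-3, was higher in cluster 5 as well (0.88 ± 0.08). Trem2, the lipid-sensing receptor of foamy macrophages, was lower there, at 166 and 299 against 624 and 716 CPM (-1.58 ± 0.12, adjusted p = 9.17e-37). Fabp5 was highest in cluster 8, at 13850.2 and 14087 CPM.

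**Figure D4:**
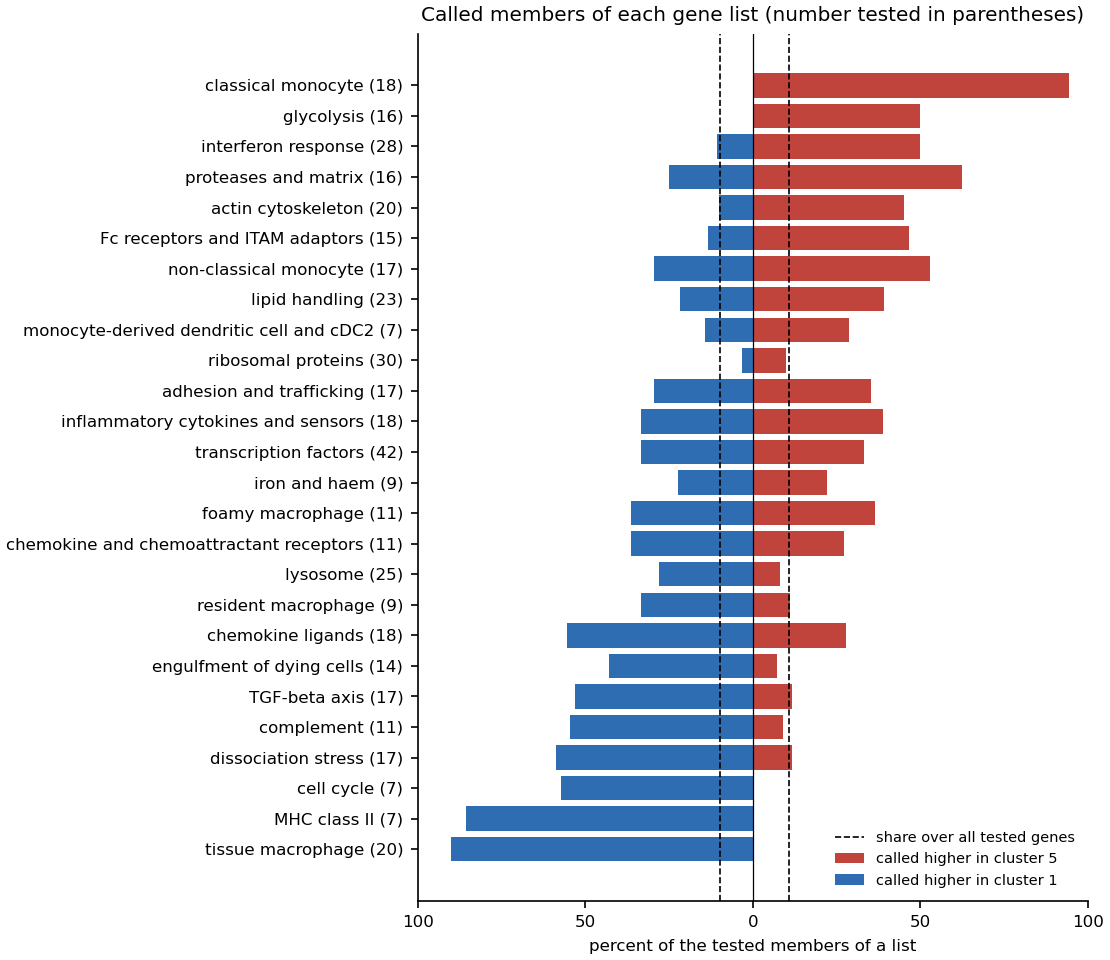
Percent of the tested members of each gene list that were called higher in cluster 5 (red, to the right) or in cluster 1 (blue, to the left), for lists with at least 7 tested members; dashed lines give the share over all tested genes, 10.7% and 9.92%. The classical monocyte list lies at the top and the tissue macrophage list at the bottom.

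Among the genes with the largest differences, several belong to no list above. Slpi, a secreted inhibitor of leukocyte proteases (chromosome 2, 164354070 to 164389095, minus strand), had 633, 373, 387 and 325 CPM in the libraries of cluster 5 and 4.39, 10.6, 0 and 1.21 CPM in cluster 1 (6.30 ± 0.22, adjusted p = 7.32e-168). Inhba, which encodes the subunit of activin A, had 112 and 88.6 CPM against 3.57 and 0.674 CPM (5.44 ± 0.35) and was found in 13.9% of cells of cluster 5. Plcb1, a phospholipase C, had 78 UMIs in cluster 5 against 3, a pooled ratio of 56.0 (95% interval 18.5 to 277). Gsr, glutathione reductase, had 199 and 208 CPM against 21.4 and 14.2 CPM (3.48 ± 0.21) and was found in 62.2% of cells of cluster 5 and 8.1% of cluster 1. Mcemp1, a mast cell and monocyte membrane protein, had 129.8 and 88.6 against 10.1 and 2.70 CPM, and Dmkn, dermokine, 88.3 and 31.8 against 1.79 and 2.70 CPM.

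Cluster 7, in which the neutrophil markers S100a8 and S100a9 were highest of all 14 clusters, carried some of the same genes. Slpi had 725 and 817 CPM there, above cluster 5, Hp 192 and 526 CPM and Inhba 76.8 and 89.5 CPM. Ly6c2 stood at 101 and 101 CPM in cluster 7, below cluster 5, where it was highest. Of 11 neutrophil markers, 3 could be tested, and each was called higher in cluster 5: the decoy receptor Il1r2 (123 and 129 against 15.5 and 6.74 CPM), the collagenase Mmp8 (43 UMIs against 2) and the growth factor receptor Csf3r, whose call was lost in 12 alternatives. The summed level of the list was 302 and 235 CPM in cluster 5 and 83.9 and 55.3 CPM in cluster 1. The defining markers S100a8 and S100a9 had 5 and 25 UMIs in cluster 5 and 2 and 2 in cluster 1, whereas S100a9 alone reached 8221 and 22385 CPM in cluster 7. Their part in the results of cluster 5 was not tested.

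The genes most in favour of cluster 1 were of other kinds. Nes, the intermediate filament nestin (chromosome 3, 87971078 to 87980451, plus strand), had 203 UMIs in cluster 1 and 3 in cluster 5, a pooled ratio of 31.4 (95% interval 10.6 to 154). St3gal6, a sialyltransferase, had 2.68 and 8.30 CPM in cluster 5 and 81.5 and 103 CPM in cluster 1 (-4.08 ± 0.35). Cadm1, a cell adhesion molecule also known from cDC1, had 4.01 and 5.54 against 42.8 and 62.0 CPM (-3.44 ± 0.40). Igf1, insulin-like growth factor 1, had 21.7, 34.8, 49.1 and 15.1 CPM in the libraries of cluster 5 and 239, 228, 236 and 252 CPM in cluster 1 (-2.97 ± 0.19, adjusted p = 1.46e-49). Olfml3, a secreted olfactomedin-like protein, and Col14a1, a collagen, differed by -2.80 ± 0.32 and -2.81 ± 0.31. Fcrls, a scavenger receptor-like Fc receptor, had 96.3 and 87.2 against 438 and 453 CPM (-2.30 ± 0.14), and Blnk, an adaptor of immunoreceptor signalling, 40.1 and 22.1 against 167 and 149.7 CPM.

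A single cell held much of the signal for 2 of the largest differences. Hbb-bs, a beta-globin gene, had 17.4 and 13.8 CPM in cluster 5 and 23.2 and 3003 CPM in cluster 1, where 98.8% of its UMIs came from 1 cell. Without that cell its log2 fold change went from -6.31 ± 0.21 to -0.09 (adjusted p = 0.920), an alternative added after seeing the data, and without library 2-1 it was -0.26. Retnla, a resistin-like secreted protein, had 0 and 8.30 CPM against 102 and 139.6 CPM, with 1.8% of cells of cluster 1 positive and 42.0% of their UMIs from 1 cell, and DESeq2 did not call it. Reads of near-identical globin copies could be split in the counting, so single globin genes are uncertain.

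Receptors for chemoattractants were divided. Of 11 tested, 3 were higher in cluster 5 and 4 in cluster 1, beside 10.7% and 9.92% over all tested genes. Ccr1, a receptor of inflammatory chemokines, had 290.3 and 179.9 CPM in cluster 5 and 50 and 33.0 CPM in cluster 1 (2.48 ± 0.17, adjusted p = 3.15e-44), and was found in 61.2% and 12.2% of cells. Ltb4r1, the leukotriene B4 receptor, had 100.3 and 77.5 against 13.7 and 9.44 CPM (2.91 ± 0.26). C3ar1, the receptor for complement C3a, was higher in cluster 1 with Cx3cr1, at 127 and 133 against 356 and 357 CPM (-1.47 ± 0.14, adjusted p = 2.00e-24).

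Adhesion genes were divided as well. Of 17 tested, 6 were higher in cluster 5 and 5 in cluster 1, beside 10.7% and 9.92% over all tested genes. Beside Itgal, the integrin chain Itgb7 had 97.6 and 91.3 CPM in cluster 5 and 8.93 and 6.74 CPM in cluster 1 (3.55 ± 0.28, adjusted p = 2.74e-34). Emb, embigin, differed by 2.10 ± 0.15 and Cd44, the hyaluronan receptor, by 1.16 ± 0.11. Integrin chains of vitronectin binding lay on the other side: Itgb5 had 155 and 143 against 292 and 272 CPM (-0.94 ± 0.14) and Itgav 56.2 and 49.8 against 78.0 and 121 CPM (-0.90 ± 0.20). The call of Itgb5 was lost at 2000 UMIs per cell and that of Itgav with DESeq2 and without library 1-2. DESeq2 called 5 and 1 of the list.

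Chemokine genes were mostly higher in the macrophages, with a median log2 fold change of -0.73. Of 18 tested, 10 were higher in cluster 1 and 5 in cluster 5, beside 9.92% and 10.7% over all tested genes. Ccl12, a ligand of Ccr2, had 39.0, 50.3, 181 and 63.0 CPM in the libraries of cluster 5 and 769.8, 383, 784 and 384 CPM in cluster 1 (-2.75 ± 0.15, adjusted p = 1.62e-74). Ccl4, an inflammatory chemokine, had 547 and 1044 against 2519 and 2823 CPM (-1.83 ± 0.09), and Ccl7 198 and 340.5 against 649 and 566 CPM (-1.22 ± 0.12; not called by DESeq2). Ccl6 went the other way, at 873 and 889 CPM in cluster 5 and 455 and 306 CPM in cluster 1 (1.21 ± 0.11). DESeq2 called 5 of the list higher in cluster 1 and 2 in cluster 5.

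Il1b and its antagonists were higher in cluster 5, and Il1a in cluster 1. Il1b, interleukin-1 beta, had 6939.8 and 5485 CPM in cluster 5 and 3417 and 2857 CPM in cluster 1 (0.96 ± 0.07, adjusted p = 3.24e-37). Its antagonist Il1rn had 651 and 401 against 262 and 196 CPM (1.16 ± 0.12), and its decoy receptor Il1r2 differed by 3.45 ± 0.25. Il1a, interleukin-1 alpha, had 25.4 and 31.8 CPM in cluster 5 and 47.6 and 45.8 CPM in cluster 1 (-0.73 ± 0.27, adjusted p = 0.0336), a call lost in 6 alternatives. Osm, oncostatin M, had 843 and 1088 against 242 and 202 CPM (2.09 ± 0.11, adjusted p = 9.00e-73). Of 18 tested cytokine and sensor genes, 7 were higher in cluster 5 and 6 in cluster 1. With DESeq2 these were 5 and 1. Il1b was highest in cluster 7, which held 11237 and 11086 CPM.

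Interferon-induced genes leaned towards cluster 5, with a median log2 fold change of 0.51. Of 28 tested, 14 were higher in cluster 5 and 3 in cluster 1, beside 10.7% and 9.92% over all tested genes. Slfn1, of the Schlafen family, had 49.5 and 45.7 CPM against 7.14 and 11.5 CPM (2.34 ± 0.33, adjusted p = 6.62e-11). Ifitm3, which blocks virus entry, had 2657 and 2584 against 1024 and 1030.1 CPM (1.33 ± 0.09), and Zbp1, a sensor of nucleic acids in Z form, 109.7 and 120.4 against 43.4 and 47.2 CPM (1.32 ± 0.20). Isg15, a ubiquitin-like modifier, differed by 0.73 ± 0.17 (adjusted p = 1.10e-04), a call lost with DESeq2 (adjusted p = 0.319), with all clusters in 1 fit and without library 1-2 or 2-2. Of the factors that relay the interferon signal, Irf7 had 100.3 and 127 against 102 and 99.8 CPM and Irf9 50.8 and 48.4 against 38.1 and 31.7 CPM, and neither was called (adjusted p = 0.628 and 0.157). Bst2, tetherin, was lower in cluster 5 (-0.44 ± 0.11), a call lost with DESeq2, with all clusters in 1 fit and without library 1-2. The count of genes higher in cluster 5 was 5 with DESeq2, 6 without library 1-2 and 7 without library 2-2.

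Genes of antigen presentation were higher in the macrophages. Of 7 tested MHC class II genes, 6 were higher in cluster 1. Cd74, the invariant chain, had 11488 and 9453 CPM in cluster 5 and 19316 and 18204 CPM in cluster 1 (-0.87 ± 0.06, adjusted p = 5.87e-44). The chains H2-Eb1, H2-Aa and H2-Ab1 differed by -0.91 ± 0.07, -0.72 ± 0.07 and -0.66 ± 0.07. H2 genes resemble each other and reads between them may be split. Their summed level, the whole list included, was 29557 and 23527 CPM in cluster 5 and 46825 and 43379.6 CPM in cluster 1. DESeq2 called 4 of them.

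Complement followed the same side, with 6 of 11 tested genes higher in cluster 1, the C1q chains and C3ar1 among them. C3, the central component, was the 1 member higher in cluster 5 (149.8 and 83.0 against 40.5 and 12.1 CPM, 2.15 ± 0.22); it was named because it was alone on its side. Of 15 tested Fc receptors and receptors that signal through ITAM motifs, 7 were higher in cluster 5 and 2 in cluster 1. The shares over all tested genes were 10.7% and 9.92%. Clec4d, a partner of Mincle, differed by 1.44 ± 0.13, and the Src-family kinase Fgr had 159 and 136 against 38.1 and 41.1 CPM (1.88 ± 0.19, adjusted p = 9.52e-21). Sirpb1c, a signal-regulatory receptor, differed by 1.25 ± 0.20. DESeq2 called 3 and 1 of these receptors.

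Of 25 tested lysosomal genes, 7 were higher in cluster 1 and 2 in cluster 5, and 16 were not called. The shares over all tested genes were 9.92% and 10.7%. Cd63, a lysosomal tetraspanin, had 353 and 441 CPM in cluster 5 and 762 and 808 CPM in cluster 1 (-1.01 ± 0.11), and the protease Ctsc differed by -0.63 ± 0.10. Psap, prosaposin, was higher in cluster 5 (0.72 ± 0.08). Of 14 tested genes for the engulfment of dying cells, 6 were higher in cluster 1 and 1 in cluster 5, beside the same shares. Mertk, the receptor tyrosine kinase that binds dying cells through bridging proteins, had 24.1 and 12.5 against 53.6 and 47.2 CPM (-1.47 ± 0.29), and its relative Axl 93.6 and 101 against 171 and 175 CPM (-0.85 ± 0.16). DESeq2 called only 1 member of that list, and neither of these kinases.

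Lipid handling was mixed, with 9 of 23 tested higher in cluster 5 and 5 in cluster 1. The shares over all tested genes were 10.7% and 9.92%. Nr1h3, the oxysterol receptor LXR-alpha, had 64.2 and 47.1 CPM in cluster 5 and 8.93 and 11.5 CPM in cluster 1 (2.43 ± 0.31, adjusted p = 4.27e-13). Lpl, lipoprotein lipase, had 45.5 and 152 against 270.2 and 259.6 CPM (-1.51 ± 0.15), and Pltp, the phospholipid transfer protein, differed by -0.71 ± 0.12. DESeq2 called 2 genes of the list higher in cluster 5 and none in cluster 1. Of 9 tested iron and haem genes, Fth1, ferritin heavy chain, and Hmox1, haem oxygenase, were higher in cluster 5 and Blvrb and Hfe in cluster 1. For Hmox1 (100.3 and 385 against 159 and 159 CPM) replicate 1 of cluster 5 lay below cluster 1, and without library 2-2 the sign turned (-0.13). None of these 4 was called by DESeq2.

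Glycolysis genes were higher in cluster 5 or not called, and none was higher in cluster 1. Glycolysis breaks glucose down to pyruvate, which Ldha turns to lactate and Slc16a3 exports, and many of its genes are known targets of Hif1a, the oxygen-regulated transcription factor. Of 16 tested, 8 were higher in cluster 5, beside 10.7% over all tested genes, with a median log2 fold change of 0.62. Pkm, pyruvate kinase, had 646 and 641 CPM against 299 and 289 CPM (1.11 ± 0.11, adjusted p = 1.90e-20), and Pgam1, phosphoglycerate mutase, 288 and 263 against 145 and 119 CPM (1.04 ± 0.14). Eno1, enolase, had 286 and 219 against 147 and 100.5 CPM (1.02 ± 0.14) and Ldha 391 and 335 against 198 and 173 CPM (0.95 ± 0.13). The lactate exporter Slc16a3 had 112 and 81.7 against 36.3 and 31.0 CPM (1.50 ± 0.21; not called at 2000 UMIs per cell), the glucose carrier Slc2a1 48.2 and 47.1 against 24.4 and 34.4 CPM (0.69 ± 0.26) and Gapdh 1280.1 and 1032 against 776 and 697 CPM (0.63 ± 0.10). The call of Slc2a1 was lost in 10 alternatives. These 3 were named after their values were seen. Over the alternatives 5 to 9 members were higher in cluster 5, with 5 at 2000 UMIs per cell.

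Hif1a was higher as well. It had 268 and 179.9 CPM in cluster 5, the highest mean of all 14 clusters, and 102 and 81.6 CPM in cluster 1 (1.26 ± 0.15, adjusted p = 4.76e-15). At 2000 UMIs per cell it was found in 34.5% of cells of cluster 5, 14.0% of cluster 1 and 6.52% of cluster 11, and unthinned in 65.6%, 34.8% and 42.6%.

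Because 8 glycolysis genes were higher together, the 250 bases before the transcription start of each were searched for ACGTG on both strands. ACGTG is 1 form of the core that HIF factors bind and also part of the E-box CACGTG. The windows of 4 genes are printed 5′ to 3′ on the strand of the gene, from RefSeq on GRCm38.p6, with the motif or its reverse complement in capitals and merged where matches overlap. Ldha (chr7:46845554-46845803, plus strand) holds 3 stretches, Slc16a3 (chr11:120948817-120949066, plus strand) 2 and Slc2a1 (chr4:119108495-119108744, plus strand) 1. Gapdh (chr6:125165774-125166023, minus strand) holds no ACGTG and is shown as the contrast for that motif only. The printed windows lean to those with the motif. A second Ldha window (chr7:46846832-46847081) and the first windows of Aldoa, Eno1 and Pkm hold 0 and are not printed, whereas later windows of Aldoa and Pkm hold 1. The other form of the core, GCGTG, was not searched, and the Gapdh window holds it.
Ldha: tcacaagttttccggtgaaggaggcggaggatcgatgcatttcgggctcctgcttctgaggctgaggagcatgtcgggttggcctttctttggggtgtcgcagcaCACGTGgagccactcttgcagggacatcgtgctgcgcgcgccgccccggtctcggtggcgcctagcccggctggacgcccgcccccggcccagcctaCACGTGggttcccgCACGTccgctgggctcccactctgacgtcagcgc
Slc16a3: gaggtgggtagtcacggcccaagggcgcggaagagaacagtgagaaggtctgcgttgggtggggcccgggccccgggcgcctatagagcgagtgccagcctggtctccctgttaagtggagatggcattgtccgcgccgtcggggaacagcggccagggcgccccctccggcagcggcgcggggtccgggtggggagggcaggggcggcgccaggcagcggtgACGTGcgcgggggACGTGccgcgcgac
Slc2a1: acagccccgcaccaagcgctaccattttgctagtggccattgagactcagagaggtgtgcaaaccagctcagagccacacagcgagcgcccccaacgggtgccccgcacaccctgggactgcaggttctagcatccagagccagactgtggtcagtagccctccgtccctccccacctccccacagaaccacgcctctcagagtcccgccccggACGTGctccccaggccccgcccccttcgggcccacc
Gapdh: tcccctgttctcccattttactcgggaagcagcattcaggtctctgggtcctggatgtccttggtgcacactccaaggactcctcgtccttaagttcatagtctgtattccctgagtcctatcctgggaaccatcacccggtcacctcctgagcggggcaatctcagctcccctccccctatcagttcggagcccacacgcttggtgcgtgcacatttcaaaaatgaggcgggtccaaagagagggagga
The first listed window held the motif in 4 of the 8 glycolysis genes called higher in cluster 5 and in 4 of the 9 not called or not tested. Of the first windows of all tested genes with one, 24.0% held it, and of all 27025 genes 16.6%. A match is a description of these letters, not a bound site.

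Transcription factors were evenly divided, with 14 of 42 tested higher in each cluster, beside 10.7% and 9.92% over all tested genes. Bhlhe40, a basic helix-loop-helix repressor, had 387 and 392 CPM in cluster 5 and 75.6 and 100.5 CPM in cluster 1 (2.14 ± 0.14, adjusted p = 8.56e-51). Cebpb, a factor of the monocyte lineage, had 1582 and 2173 against 989.6 and 1214 CPM (0.74 ± 0.09), and Runx3, Id3 and Rara differed by 0.95 ± 0.14, 0.94 ± 0.12 and 1.23 ± 0.24, the last not called by DESeq2. On the side of the macrophages Mef2c, a MADS-box factor, had 62.9 and 90.0 against 179.7 and 229 CPM (-1.44 ± 0.17, adjusted p = 1.65e-16). Klf2 and Cebpa had 246 and 299 against 514 and 597 CPM (-1.05 ± 0.12) and 128 and 154 against 296 and 279 CPM (-1.05 ± 0.14). Maf, a factor of macrophage identity, differed by -0.70 ± 0.17, a call lost with DESeq2 and at 2000 UMIs per cell. Spi1 (PU.1), the factor that both cell types need, was not called (0.21 ± 0.12, adjusted p = 0.207). DESeq2 called 6 and 5 of the list.

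**Figure D5:**
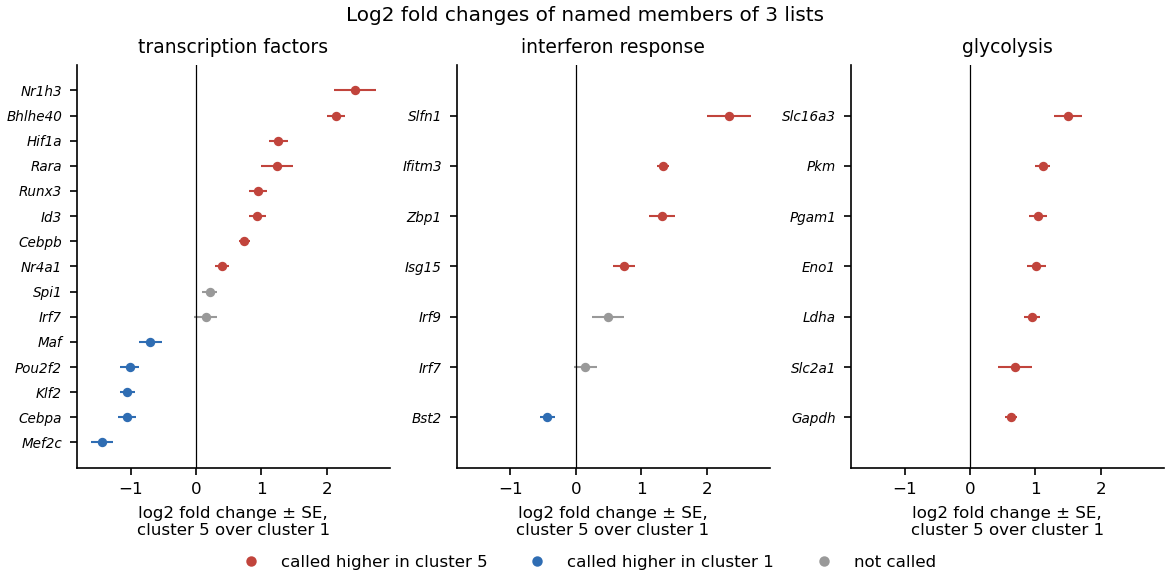
Log2 fold change of cluster 5 over cluster 1 with its standard error for the transcription factors, interferon-induced genes and glycolysis genes that the text names; red and blue are called higher in cluster 5 and in cluster 1, grey is not called. Named transcription factors lie on both sides, from Mef2c at -1.44 to Nr1h3 at 2.43, and the 7 named glycolysis genes lie between 0.63 and 1.50.

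Of 17 tested genes around transforming growth factor beta, 9 were higher in cluster 1 and 2 in cluster 5. That stands beside 9.92% and 10.7% over all tested genes, and the median log2 fold change was -0.58. Members are named here by smallest adjusted p, not by their role in the pathway. Tgfbi, a secreted matrix protein induced by that factor, was higher in cluster 5 (1641 and 1500.3 against 650.4 and 700.5 CPM, 1.20 ± 0.09), unlike most of the list. Skil, a repressor of Smad signalling, had 356 and 389 against 605 and 651 CPM (-0.77 ± 0.11, adjusted p = 2.40e-10), and P2ry6, a receptor for uridine diphosphate, differed by -1.23 ± 0.16. Olfml3, named above, also belongs to this list. DESeq2 called 5 and 1.

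Of 16 tested genes of proteases and matrix, 10 were higher in cluster 5 and 4 in cluster 1. That stands beside 10.7% and 9.92% over all tested genes, and the median log2 fold change was 1.30. Thbs1, thrombospondin-1, a matrix glycoprotein (chromosome 2, 118111876 to 118127133, plus strand), had 3217, 2115, 1440.2 and 1872 CPM in the libraries of cluster 5 and 241, 289, 79.1 and 169 CPM in cluster 1 (3.38 ± 0.11, adjusted p = 5.79e-209). It was found at 2000 UMIs in 60.0% of cells of cluster 5 (52.9 to 66.8), 12.3% of cluster 1 and 0 of 46 cells of cluster 11 (unthinned 70.3%, 18.4% and 0 of 47 cells). Cluster 7 held 1498 and 1253 CPM, the next highest of the 14 clusters. Plaur, the urokinase receptor, had 449 and 489 against 114 and 127 CPM (1.94 ± 0.13) and the metalloprotease Mmp19 209 and 92.7 against 25 and 10.8 CPM (3.05 ± 0.22). Over all alternatives 8 to 11 members were higher in cluster 5.

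S100 proteins and the actin cytoskeleton also leaned to cluster 5, beside shares of 10.7% and 9.92% called over all tested genes. The calcium-binding S100 genes were higher there in 4 of 6 tested and in none in cluster 1. S100a4 had 852 and 627 CPM against 239 and 190.1 CPM (1.76 ± 0.12), S100a6 1388 and 1093 against 459 and 417 (1.48 ± 0.10), S100a11 534 and 404 against 146 and 162 (1.58 ± 0.13) and S100a10 1224 and 698 against 396 and 369 (1.27 ± 0.11). Of 20 actin cytoskeleton genes, 9 were higher in cluster 5 and 2 in cluster 1. Tmsb10, a thymosin that binds actin monomers, had 1118 and 996 against 292 and 210.3 CPM (2.07 ± 0.11, adjusted p = 1.05e-74), whereas Actb differed by 0.42 ± 0.06, a call lost with DESeq2 and with all clusters in 1 fit. DESeq2 called all 4 S100 genes and 3 of the actin genes.

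Genes that cell dissociation is known to induce differed between the clusters. Of 17 tested, 10 were higher in cluster 1 and 2 in cluster 5, beside 9.92% and 10.7% over all tested genes. Egr1 had 198 and 375 CPM in cluster 5 and 687 and 885 CPM in cluster 1 (-1.52 ± 0.12), the heat shock gene Hspa1a 547 and 1363 against 1451 and 2209 CPM (-1.05 ± 0.09) and Fosb 759.8 and 669.9 against 1356 and 1199 CPM (-0.86 ± 0.10). Ier3 went the other way (1.22 ± 0.10). The summed level of the list was 23580 and 30725 CPM in cluster 5 and 29333 and 32244 CPM in cluster 1, and its part in the chemokine and cytokine results was not tested. Of 30 ribosomal protein genes, 3 were higher in cluster 5 and 1 in cluster 1, beside 20.7% called over all genes. Their summed level was 71451 and 72180.1 CPM in cluster 5 and 69565.5 and 69315 CPM in cluster 1. DESeq2 called none of them. Malat1, a nuclear RNA, was lower in cluster 5 (11759 and 12918 against 16964 and 18442 CPM, -0.54 ± 0.06), a call lost with DESeq2 and with all clusters in 1 fit, and Neat1 was not called. The median share of mitochondrial counts was 2.90%, 4.27%, 3.81% and 3.72% in cluster 5 and 4.60%, 4.62%, 4.23% and 4.26% in cluster 1. It was lower in cluster 5 in each library.

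Most markers of other cell types were too low to test. T and NK cell markers left 1 testable gene of 8, Il7r (191 and 179.9 against 79.1 and 83.6 CPM), and 6 of the 8 were at 0 in cluster 5. B cell and plasma cell markers summed to 8.03 and 5.54 CPM in cluster 5 and 29.8 and 14.8 CPM in cluster 1. Fibroblast and smooth muscle markers summed to 618 and 275 CPM in cluster 5 and 340 and 338 CPM in cluster 1. Decorin, Dcn, was called higher in cluster 5 (140.5 and 38.8 against 46.4 and 45.8 CPM), with 33.1% of its UMIs from 1 cell, and the call was lost in 7 alternatives, with a log2 fold change of 0.88 ± 0.21 in all cells, 0.53 without library 1-1 and 0.25 at 2000 UMIs per cell. Of 7 tested markers of monocyte-derived dendritic cells and cDC2, 2 were higher in cluster 5 and 1 in cluster 1. The shares over all tested genes were 10.7% and 9.92%. Ccr7, called higher in cluster 5, had 64.6% of its UMIs there in 1 cell, and Cd209a was found in 6.7% of cells. DESeq2 called neither. Markers of cDC1 gave 1 call in each direction of 5 tested, those of plasmacytoid dendritic cells 1 in cluster 5 and 2 in cluster 1 of 3, and those of endothelium 1 in cluster 5 of 2. Of 7 tested cell cycle genes, 4 were higher in cluster 1, with Mki67 at 6.69 and 19.4 against 40.5 and 22.2 CPM, and DESeq2 called none of them. Without library 1-1 the difference of Mki67 went from -1.29 ± 0.36 to -0.70.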

How the data were processed

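Aortic CD45+ cells were captured in 4 droplet libraries. Per the submitters' processing notes, Cell Ranger 3.0.2 and Seurat 3.1.1 were used. For cell filters, doublets and clustering the settings were not given in the sources used here. Whole-number UMI counts per gene and cell stood in 1 deposited table; the authors' cell table gave the library, the cluster number and the percent of mitochondrial counts; a log-normalized table was not used. The number of genes, cells and UMIs was 18825, 3002 and 15893384.

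Counts were summed per cluster and biological replicate and tested with edgeR 4.0.16 (quasi-likelihood test, filterByExpr, TMM factors, replicate as a block, 4 sums, 1 residual degree of freedom) in R 4.3.3, with Benjamini-Hochberg adjustment over 7237 genes. A standard error is the absolute log2 fold change divided by the square root of F. The estimated spread was shared over all genes. Both clusters of a replicate come from the same libraries, which is where the pairing comes from; the deviations of paired sums from their cluster means correlated at r = 0.10 over genes. Whether the replicates are separate mice is not given beyond their titles. P-values and standard errors rest on a spread shared over genes, so they do not measure how far 1 gene varies between its own sums. Hmox1 was called although its replicates pointed opposite ways. Named genes were the 15 called genes with the largest difference to each side among those at a mean of at least 50 CPM that moved the same way in both replicates, up to 4 called members of each list by adjusted p, the markers, and any member of the monocyte, tissue macrophage, transcription factor and interferon lists; other genes are given as single values. Members, lists and rule were chosen with earlier results of these data known. Alternatives were DESeq2 1.42.0, RLE factors, library totals, other filters, no block, 4 libraries, thinned cells, all clusters in 1 fit and leaving out each library; a robust spread and leaving out 1 globin-rich cell were added after seeing the data. Intervals and floors (3 counts) cover counting error only. Promoter windows came from RefSeq on GRCm38.p6, and gene coordinates from GENCODE M21 on GRCm38. Some genes are not reported here.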

Additional observations from a re-analysis of the deposited data

Results flagged for a closer look

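Ccl12, a ligand of Ccr2, was set apart by 1 library within cluster 5. It stood at 181 CPM in library 2-1, whereas libraries 1-1, 1-2 and 2-2 held 39.0, 50.3 and 63.0 CPM. The gap to the nearest library was 0.831 of the whole range of the 4 libraries, just above the 95% critical value of Dixon's test. Chance flags about 1 in 20 groups, and 1 of 35 groups tested was flagged. All 4 libraries of cluster 5 remained below the lowest library of cluster 1, at 383 CPM.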

How the results depend on the processing

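The counts of called genes depended on the processing. Against 777 genes higher in cluster 5 and 718 genes higher in cluster 1, DESeq2 called 168 and 144, thinning to 2000 UMIs per cell 385 and 402, all clusters in 1 fit 490 and 447, and a minimum of 50 CPM 435 and 510. Some of these fits tested fewer genes. At 50 CPM 568 and 445 of the 777 and 718 genes were tested, and 434 and 440 were called again. After thinning 638 and 540 were tested, and 363 and 352 were called again. Leaving out each library in turn gave 361 to 644 and 367 to 626, in both cases lowest without library 1-2. Without the replicate block, which pairs the clusters of 1 biological replicate, 539 and 486 genes were called, all among the calls above. RLE factors, library totals, no filter on low counts, 4 libraries as samples, leaving out the 5% of cells with the most UMIs, a robust spread and leaving out the globin-rich cell stayed within 1.5 times of both counts. Of the genes named in the text, 144 were tested and 136 called; 108 kept call and direction in every alternative in which they were tested, and 118 in every one but DESeq2. The sign of the log2 fold change turned for Ccr2 (-0.027 with 4 libraries as samples, and -0.23 to 0.14 when each library was left out), Hmox1 (-0.13 to 0.84) and Irf7 (-0.18 to 0.30), negative without library 1-2 for Ccr2 and without library 2-2 for the others. The cause was not tested. The comparison rests on 4 sums with 1 residual degree of freedom, and for genes with few UMIs the counting error limits the precision.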
